A study of Mus musculus with 32 samples.

Results

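The 43 genes described here encode the machinery that carries a signal from the T cell receptor into a CD4 T cell. They were taken by name, and 7 belong to the receptor and its coreceptors, 6 are kinases, 13 are adaptors and exchange factors, 10 are phosphatases, ubiquitin ligases and other inhibitors, and 7 belong to the calcium and NFAT arm. Every gene was placed in a single group. The receptor group includes Cd5 and Cd6, and the adaptor group includes the phospholipase Plcg1. Csk, which restrains the signal, was counted with the kinases. Each name matched a single gene, and all 43 passed the filter on low counts, out of 17159 genes tested. RNA sequencing covered 32 libraries of sorted T cells, taken from the liver or the spleen of C57BL/6 males. All of these mice carried Foxp3GFP, a reporter that marks cells expressing Foxp3, the defining transcription factor of regulatory T cells. The gate for regulatory T cells (Treg) was TCRb+CD4+Foxp3+, and that for conventional CD4 T cells (Tconv) was TCRb+CD4+Foxp3-. The mice were controls or had been given CCl4 (carbon tetrachloride, a liver toxin used to induce fibrosis), with 3 control and 5 CCl4 libraries for each of the 4 combinations of tissue and cell type. The sources used here give neither the age of the mice, the dose and duration of CCl4, nor whether libraries of a group came from separate mice. The p-values therefore cover only the spread among libraries, which may be technical.

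The receptor recognises peptide on MHC through its variable chains and signals through the CD3 chains and the zeta chain Cd247. The kinases Lck and Fyn phosphorylate these chains, Zap70 binds them and phosphorylates the adaptors Lat and Lcp2 (SLP-76), and the assembled complex activates phospholipase Plcg1, the Ras exchange factors Rasgrp1 and Sos1, and Prkcq (protein kinase C theta). Calcium entry through Stim1 and Orai1 activates calcineurin, which sends NFAT factors to the nucleus. Csk, the phosphatases, the Cbl ubiquitin ligases, the diacylglycerol kinases Dgka and Dgkz and the adaptors Sla and Sla2 restrain the signal. Treg depend on this pathway for their development and for their suppressive programme.

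The libraries held between 24513124 and 75292019 estimated counts. The sorts matched their labels: the mean Foxp3 level per group was 781 to 801 TPM (a depth-scaled level that also corrects for transcript length) in the 4 Treg groups and 1.23 to 3.43 TPM in the 4 Tconv groups. Control libraries 2 and 3 of spleen Treg and of spleen Tconv stood apart in Fos, an immediate early gene, at 19.4 to 26.4 CPM (counts scaled to library size with TMM) against 418 to 1116 CPM in the other 28 libraries. Counts of called genes in comparisons that use spleen controls are therefore also given without these 4 libraries.

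Per length, Lck was the most abundant of the 43 genes, with a mean of 1431 TPM over the 32 libraries and a range of 971 to 2111 TPM. Cd3g followed at 1233 TPM, Cd3e at 932 TPM, the adaptor Skap1 at 697 TPM and Lat at 656 TPM. These ranges overlapped between neighbours in the order: Cd3g ran from 868 to 1515 TPM over libraries and Cd3e from 741 to 1285 TPM. At the low end stood Sos1 at 7.96 TPM, the calcineurin regulator Rcan1 at 11 TPM and the Csk anchor Pag1 at 32.1 TPM. Lowest-ranked Sos1 reached at most 15.2 TPM in any library, and the NFAT factor Nfatc2, at 23 to 45.4 TPM, was called in none of the 8 main comparisons, where the other 42 genes were each called in at least 1.

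Promoter sequence is shown for Lck and Rcan1, since each of these genes has a pair of promoters whose transcripts are separate in the tables. The proximal Lck promoter is known for its use in thymocytes and the distal one for its use in mature T cells. The downstream Rcan1 promoter is known to respond to calcineurin and NFAT. The sequences are the 250 bases before each start from RefSeq (GRCm38.p6, minus strand, both genes), with every GGAAA, the core that NFAT binds, or its reverse complement TTTCC in capitals. RefSeq windows were found for 35 of the 43 genes, 51 windows in all.
Lck distal, chr4:129573642-129573891: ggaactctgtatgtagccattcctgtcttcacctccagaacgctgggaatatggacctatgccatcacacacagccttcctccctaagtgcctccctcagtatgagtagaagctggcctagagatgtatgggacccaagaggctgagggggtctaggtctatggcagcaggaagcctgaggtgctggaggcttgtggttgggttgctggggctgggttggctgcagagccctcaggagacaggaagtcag
Lck proximal, chr4:129558373-129558622: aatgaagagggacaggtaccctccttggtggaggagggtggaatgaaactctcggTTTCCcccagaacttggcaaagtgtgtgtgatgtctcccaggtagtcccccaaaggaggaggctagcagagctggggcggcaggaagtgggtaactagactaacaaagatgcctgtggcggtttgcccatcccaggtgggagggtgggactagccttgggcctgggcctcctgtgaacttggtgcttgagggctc
Rcan1 upstream, chr16:92466170-92466419: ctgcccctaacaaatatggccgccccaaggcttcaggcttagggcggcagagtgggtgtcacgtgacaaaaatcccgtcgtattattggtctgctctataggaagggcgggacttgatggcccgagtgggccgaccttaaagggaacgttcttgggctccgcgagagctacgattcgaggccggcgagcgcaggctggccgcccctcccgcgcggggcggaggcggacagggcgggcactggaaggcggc
Rcan1 downstream, chr16:92400079-92400328: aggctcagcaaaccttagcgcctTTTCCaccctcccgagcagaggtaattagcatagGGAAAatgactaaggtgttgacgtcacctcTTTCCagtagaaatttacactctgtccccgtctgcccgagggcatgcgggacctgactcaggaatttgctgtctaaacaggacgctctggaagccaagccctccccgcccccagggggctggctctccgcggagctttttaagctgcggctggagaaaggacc
The downstream Rcan1 window held 3 matches, the proximal Lck window 1, and the distal Lck and upstream Rcan1 windows 0. Of 32851 windows of this length, 55.6% held at least 1 match and 6.39% held at least 3. A match describes these letters and is not evidence of binding.

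Genes of this machinery were called after CCl4 mainly in liver Treg. There 12 of the 43 genes were lower and 4 higher by edgeR's quasi-likelihood test at an adjusted p under 0.05. Over all genes tested, 7.34% were lower and 7.55% higher (14.9% in either direction). Prkcq, Dgka and Txk fell with the smallest adjusted p, and Rasgrp1, Rcan1, Cd3g and Lcp2 rose. By role, 3 of 6 kinases, 5 of 13 adaptors and 4 of 10 inhibitors were lower, while the receptor group and the NFAT arm each had 1 gene higher and none lower. The CPM of the 5 CCl4 and 3 control libraries did not overlap for 17 of the 43 genes, against 19.1% of all genes. The median log2 fold change of the 43 genes was -0.05 and that of all genes 0.00. In these bulk samples fewer cells of a type and less RNA per cell cannot be told apart. Counts of calls do not compare effects between populations. Tested directly, the CCl4 effect in liver Treg differed from that in liver Tconv for 5 of the 43 genes, against 3.64% of all genes. It differed from that in spleen Treg for 4, against 5.48%.

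Among the kinases, Prkcq (chr2:11172108-11301222, plus strand, GRCm38), which links the receptor and CD28 to NF-kB, changed most. Control libraries of liver Treg held 366, 401 and 373 CPM of Prkcq and CCl4 libraries 210.4, 221, 189.9, 179 and 190 CPM. All 5 CCl4 libraries lay far below the controls, and the means were 198 ± 17.3 (SD, n = 5) and 379.7 ± 18.5 CPM (SD, n = 3). The log2 fold change was -0.94 (SE 0.07, edgeR adjusted p = 4.28e-10). Txk, a Tec family kinase, read 158, 169.5 and 186 CPM in controls and 101, 109, 123, 90.9 and 93.2 CPM after CCl4, again without overlap (log2 fold change -0.73, SE 0.12, edgeR adjusted p = 6.04e-05). Csk, the kinase that switches Lck off, read 111, 138 and 112 CPM in controls and 99.4, 84.7, 98.8, 105 and 98.9 CPM after CCl4, a small difference without overlap (log2 fold change -0.30, SE 0.09, edgeR adjusted p = 0.0205). The Csk call was lost without control replicate 2 (edgeR adjusted p = 0.229) and without CCl4 replicate 2 (edgeR adjusted p = 0.0567) of liver Treg, with the compared groups fitted alone (0.0608) and with length offsets (0.0686), within a range of 0.00611 to 0.229 over its 15 alternatives. Lck, Fyn and Zap70 did not pass the test, with Lck at a log2 fold change of -0.08 (edgeR adjusted p = 0.61).

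**Figure D1:**
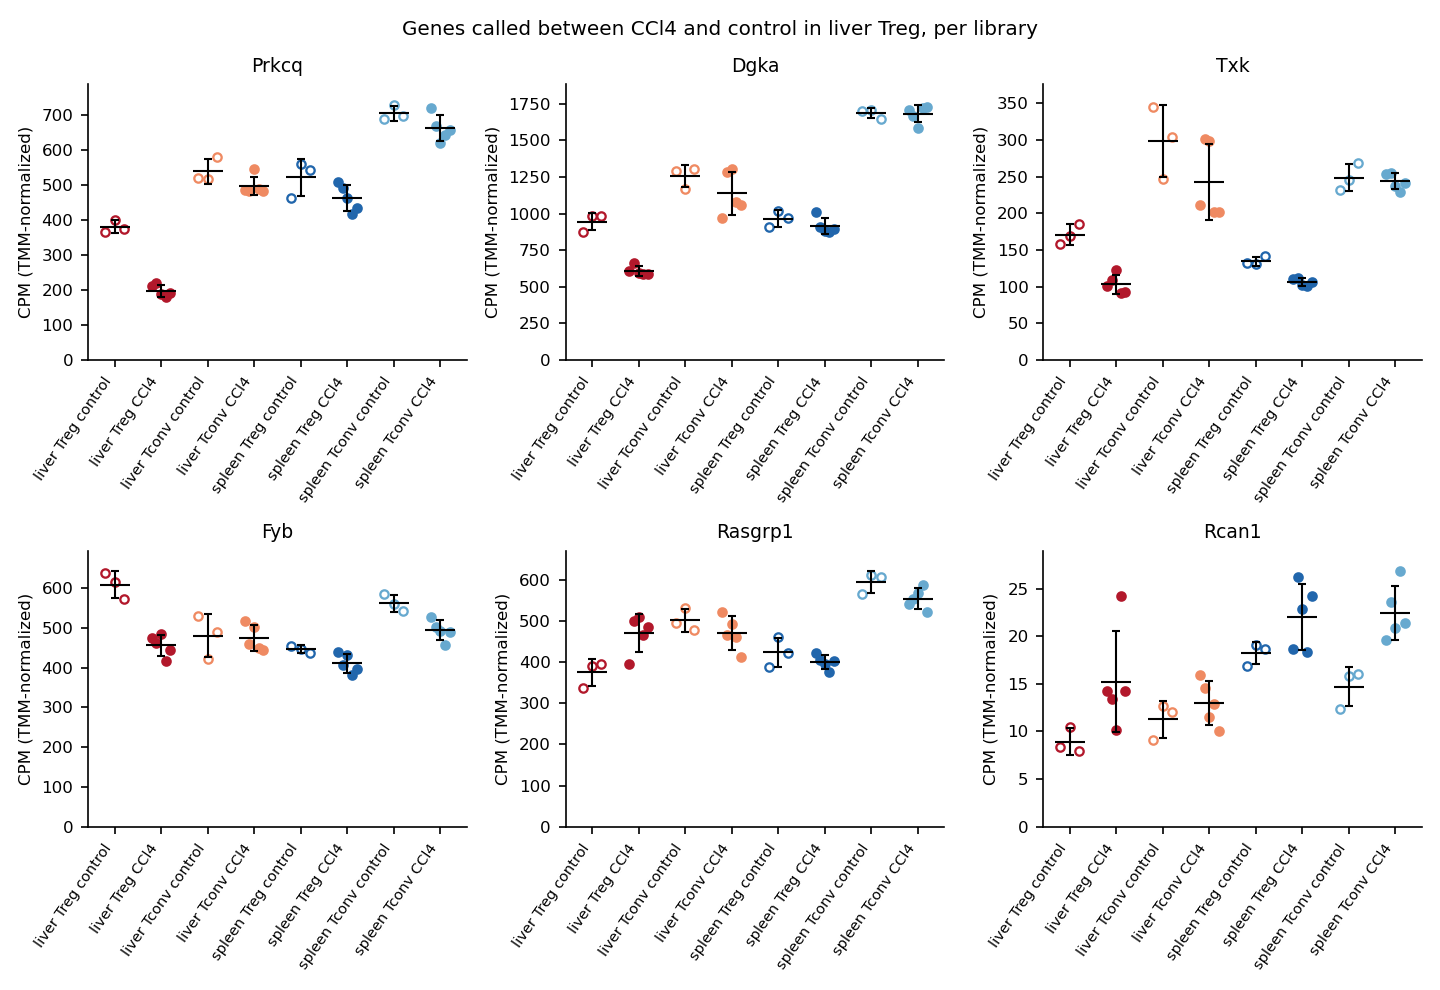
CPM (TMM-normalized, linear axis from 0) of 6 genes called between CCl4 and control in liver Treg, shown in all 8 groups. Open points are control and filled points CCl4 libraries, and the bar and whiskers give mean and SD; the CCl4 libraries of liver Treg hold 179 to 221 CPM of Prkcq, below every other library, and 1 of them stands alone for Rcan1 at 24.2 CPM.

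The adaptors moved in both directions. Fyb (ADAP), which links SLP-76 to integrin activation, read 639.9, 615 and 574 CPM in control liver Treg and 474, 463, 486, 418 and 445 CPM after CCl4, with no overlap (log2 fold change -0.42, SE 0.07, edgeR adjusted p = 6.33e-05). Grap2 (GADS), which joins SLP-76 to Lat, read 126, 114 and 95.4 CPM in controls and 88.3, 69.3, 76, 54.5 and 58.2 CPM after CCl4 (log2 fold change -0.69, SE 0.14, edgeR adjusted p = 0.000841). Every CCl4 library was below every control for Grap2 as well. Rasgrp1, the diacylglycerol-dependent Ras activator (chr2:117279993-117343001, minus strand), went the other way, at 337, 392 and 397 CPM in controls and 396, 500.5, 511, 466 and 486 CPM after CCl4. Its groups overlapped, since CCl4 replicate 1 at 396 CPM lay under the highest control at 397 CPM (log2 fold change 0.33, SE 0.08, edgeR adjusted p = 0.00394). The Rasgrp1 call was lost without control replicate 1 of liver Treg (log2 fold change 0.26, edgeR adjusted p = 0.0563, the largest over its 15 alternatives, which ran from 0.000458). Of the other adaptors, Pag1, Lat and Skap1 fell, with log2 fold changes of -0.51, -0.36 and -0.24, and Lcp2 rose by 0.30 on the log2 scale. Grb2, Plcg1, Sos1, Vav1, Themis and Nck1 did not pass.

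Inhibitors that passed were all lower. Dgka, which removes the diacylglycerol that Rasgrp1 and Prkcq need (chr10:128720134-128744855, minus strand), read 876, 981 and 981 CPM in control liver Treg and 607, 666, 593, 587 and 587 CPM after CCl4. The groups lay well apart (log2 fold change -0.64, SE 0.07, edgeR adjusted p = 3.98e-07). Dgkz, the second diacylglycerol kinase of the list, read 296, 334 and 349 CPM in controls and 256, 274, 261, 239.6 and 265 CPM after CCl4 (log2 fold change -0.33, SE 0.09, edgeR adjusted p = 0.00951). Ptpn22, a phosphatase that acts on Lck and Zap70, read 337, 359 and 421 CPM in controls and 297, 334, 294, 284 and 307 CPM after CCl4 (log2 fold change -0.29, SE 0.09, edgeR adjusted p = 0.0232). Neither gene overlapped between the groups, although for Ptpn22 the gap between 334 and 337 CPM was narrow. The Dgkz call was lost without control replicate 3 of liver Treg (edgeR adjusted p = 0.0701, in a range of 0.00196 to 0.0701 over 15 alternatives). That for Ptpn22 was lost without the same control (0.208), without CCl4 replicate 4 (0.0567) and with protein-coding transcripts only (edgeR adjusted p = 0.0727), in a range of 0.0104 to 0.208 over its alternatives. Sla2 fell by 0.37 on the log2 scale with overlapping groups. The phosphatases Ptpn6 and Ptpn2, the ligases Cbl and Cblb, Ubash3a and Sla did not pass.

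In the receptor group Cd3g was higher after CCl4, at 431, 429 and 436 CPM in control liver Treg and 561, 482, 519, 588 and 517 CPM after CCl4 (log2 fold change 0.30, SE 0.09, edgeR adjusted p = 0.0162). Its 3 controls were close together and lay below all CCl4 libraries. The Cd3g call was lost without control replicate 1 (edgeR adjusted p = 0.0573) or control replicate 2 (0.0575) of liver Treg and with length offsets (0.0811), in a range of 0.00623 to 0.0811 over 15 alternatives. Cd3e had a log2 fold change of 0.08 (edgeR adjusted p = 0.534), and the other 5 genes of the group did not pass either. In the NFAT arm Rcan1, an NFAT target that binds calcineurin (chr16:92391953-92470867, minus strand), read 8.35, 10.5 and 7.95 CPM in controls and 14.2, 13.4, 10.1, 24.2 and 14.2 CPM after CCl4. CCl4 replicate 4 stood well above the rest and replicate 3 lay within the controls (log2 fold change 0.77, SE 0.20, edgeR adjusted p = 0.00932). The Rcan1 call was lost without control replicate 1 (edgeR adjusted p = 0.0527) or control replicate 3 (0.0565) of liver Treg and with the compared groups fitted alone (0.0799), in a range of 0.00183 to 0.0799. Nfatc1 had CPM of 263, 349 and 346 in controls and 367, 389, 407, 493 and 464 after CCl4, without overlap, but did not pass (log2 fold change 0.41, SE 0.15, edgeR adjusted p = 0.0587).

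For Prkcq, Dgka, Txk, Fyb and Grap2 the call held under each of the 15 alternatives run, whereas the count of 16 called genes fell to 10 without control replicate 1 of liver Treg. The list of endothelial and stellate markers (5 of 5 genes, none at 0 in every library) summed to 69.4 to 115 TPM in liver Treg after CCl4 and 127 to 137 TPM in controls, and its members went in both directions. Pecam1 made most of the sum, with means of 73.9 TPM after CCl4 and 127 TPM in controls. It was at 92.4 to 130.4 TPM in the spleen groups too, where Kdr and Stab2 were at most 0.148 and 0.715 TPM. Pecam1 was thus not specific to endothelial cells here. The endothelial genes Stab2 and Kdr had means of 0.0107 and 0.527 TPM after CCl4 and 2.16 and 0.519 TPM in controls. The stellate genes Dcn and Col1a2 had 9.62 and 1.62 TPM after CCl4 and 3.06 and 0.184 TPM in controls. Hepatocyte markers (5 of 5 genes) summed to 4.12 to 251 TPM after CCl4 and 37.3 to 67.2 TPM in controls. Their part in the results was not tested.

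Few of these genes were called after CCl4 in the other populations. In liver Tconv 0 of the 43 genes were called by edgeR, against 0.326% of all genes (0.146% higher and 0.181% lower), and DESeq2 also called 0, while 8 had an unadjusted p under 0.05. Only 1 gene, Themis, had non-overlapping libraries, against 6.65% of all genes. Prkcq read 520.1, 517 and 579.8 CPM in control liver Tconv and 485, 481, 544, 489 and 483 CPM after CCl4, with overlap (log2 fold change -0.12, SE 0.08, edgeR adjusted p = 0.53). In spleen Tconv edgeR likewise called 0 genes, against 1.07% of all genes (0.653% higher and 0.414% lower), and DESeq2 called 2, while 9 had an unadjusted p under 0.05. Libraries did not overlap for 4 genes, against 8.82% of all. Among these 4 was Rcan1, at 12.3, 15.8 and 16 CPM in control spleen Tconv and 19.6, 23.6, 20.9, 26.8 and 21.4 CPM after CCl4 (log2 fold change 0.61, SE 0.20, edgeR adjusted p = 0.122). In spleen Treg 1 gene was called, against 1.18% of all genes (0.758% higher and 0.42% lower), and libraries did not overlap for 8 genes, against 10.9% of all. Among these 8 was Txk, at 132, 131 and 142 CPM in control spleen Treg and 111, 112, 102, 101 and 106 CPM after CCl4 (log2 fold change -0.34, SE 0.12, edgeR adjusted p = 0.179). Rcan1 and Txk thus did not pass there, though their libraries did not overlap. With spleen controls 2 and 3 left out, which leaves 1 control a group whose spread is assumed to be that of the other groups, edgeR called 0 of the 43 genes in spleen Treg and in spleen Tconv, and 0% of all genes.

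The gene called in spleen Treg was Sla, the Src-like adaptor that promotes removal of receptor chains. Sla read 503, 481 and 482 CPM in control spleen Treg and 607, 597, 623, 699 and 594 CPM after CCl4, without overlap (log2 fold change 0.35, SE 0.09, edgeR adjusted p = 0.0425). That call did not hold when any 1 of the 8 libraries was left out, with edgeR adjusted p from 0.0508 without CCl4 replicate 5 to 0.258 without control replicate 2 of spleen Treg. Without spleen controls 2 and 3 the log2 fold change was 0.31 (edgeR adjusted p = 0.691), and over its 16 alternatives the adjusted p ran from 0.00407 to 0.691. Summed markers of myeloid cells (8 of 8 genes, none at 0 in every library) were 62.6 to 261 TPM in spleen Treg after CCl4 and 17.7 to 25 TPM in the controls, and their part in the Sla result was not tested.

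Differences between effects were tested directly. The CCl4 effect was lower in liver Treg than in liver Tconv for 4 of the 43 genes and higher for 1, against 1.77% and 1.88% of all genes (3.64% in either direction). Prkcq differed by -0.82 (SE 0.11, edgeR adjusted p = 1.56e-05), Lat by -0.58, Dgka by -0.49 and Fyb by -0.40 on the log2 scale, and Rasgrp1 by 0.42. With the liver groups fitted alone Dgka (edgeR adjusted p = 0.052), Fyb (0.0794) and Rasgrp1 (0.123) were lost. Rasgrp1 was also lost with no filter (edgeR adjusted p = 0.0512) and with length offsets (log2 difference 0.26, edgeR adjusted p = 0.177), in a range of 0.00494 to 0.177 over its 23 alternatives. Lat was lost without control replicate 1 of liver Tconv (edgeR adjusted p = 0.055). Fyb and Rasgrp1 were lost without control replicate 1 of liver Treg (edgeR adjusted p = 0.0617 and 0.11) or control replicate 2 of liver Tconv (0.0822 and 0.0855), and the count of 5 then fell to 3. The CCl4 effect in liver Treg was also lower than in spleen Treg for Prkcq, by -0.77 (SE 0.11, edgeR adjusted p = 5.09e-05), and for Dgka, by -0.56. It was higher for Rasgrp1, by 0.41, and for Nck1, an adaptor to the actin cytoskeleton, by 0.37, so that 2 genes were lower and 2 higher, against 3.46% and 2.02% of all genes (5.48% in either direction). Both comparisons use the same liver Treg libraries. Without spleen controls 2 and 3 the comparison with spleen Treg had 2 calls in place of 4: Rasgrp1 (0.28, edgeR adjusted p = 0.372) and Nck1 (0.31, edgeR adjusted p = 0.346) were no longer called; over all alternatives the adjusted p ran from 0.0055 to 0.372 for Rasgrp1 and from 0.0206 to 0.346 for Nck1.

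**Figure D2:**
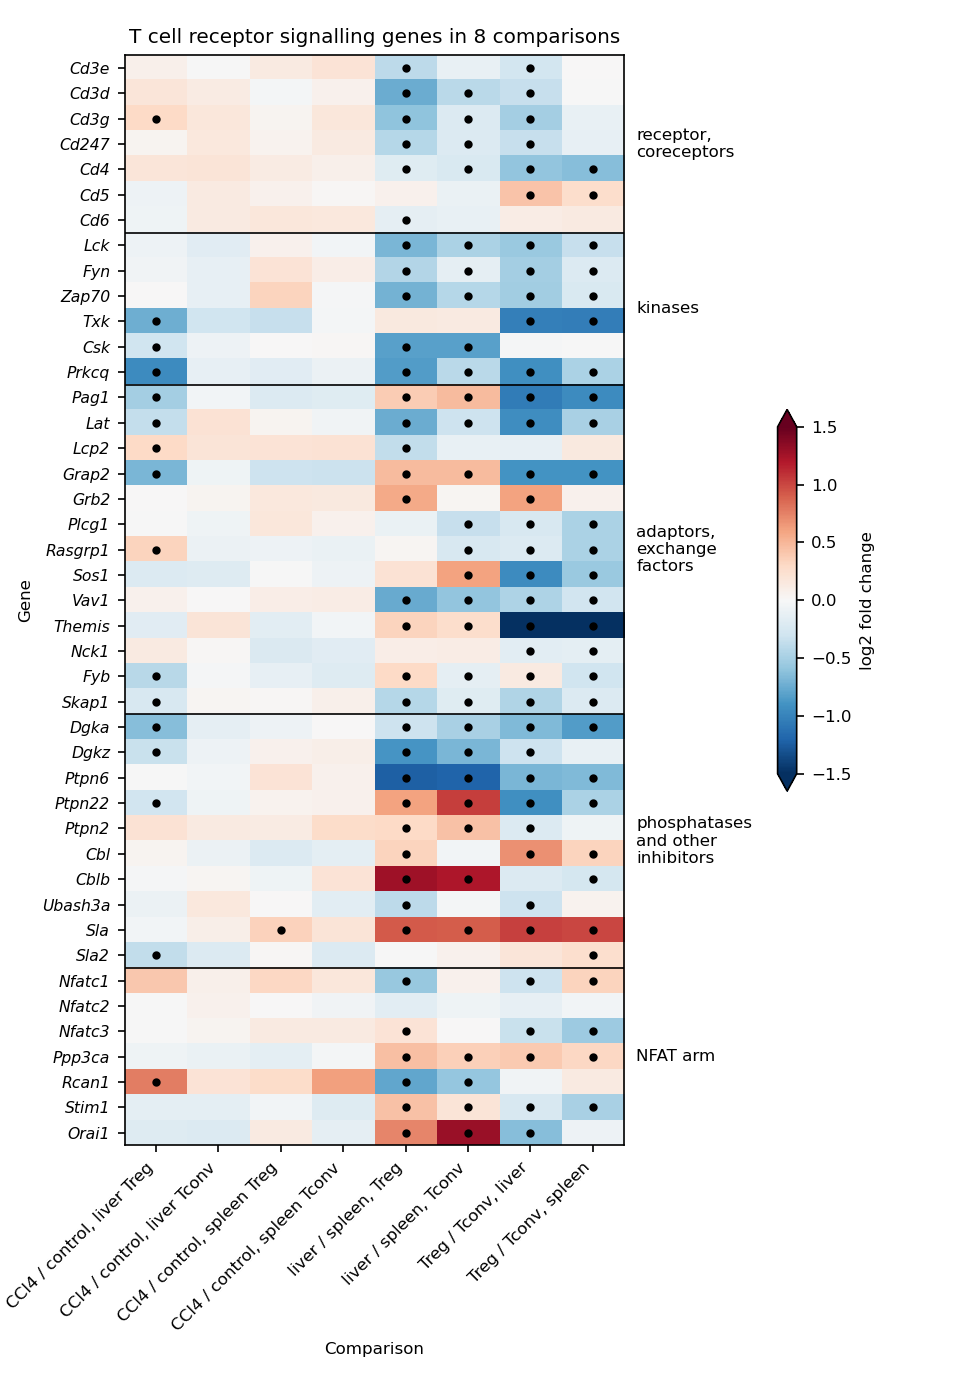
Log2 fold changes (colour, limited to -1.5 to 1.5) of the 43 genes, grouped by role, in the 8 main comparisons; black dots mark edgeR adjusted p under 0.05. The first column has 16 dots, the next 3 columns together 1, and the tissue and cell type columns 29 to 36 each. The tissue and cell type columns average over control and CCl4.

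Each comparison of tissues or of cell types was averaged over control and CCl4, so a call need not hold in both conditions. Between tissues, 6 of 7 receptor genes and 5 of 6 kinases were lower in liver than in spleen in Treg, and 4 of 7 and 5 of 6 in Tconv. Cd5 and Txk were called in neither cell type. Of the 43 genes, 21 were lower and 14 higher in liver Treg than in spleen Treg, against 30.5% and 30.1% of all genes (60.6% in either direction); in Tconv 19 were lower and 11 higher, against 27.7% and 27.2% (55% in either direction). In Treg the libraries of the tissues did not overlap for 22 genes, against 23.6% of all, and in Tconv for 15, against 21.8%. Called lower in both cell types were 16 genes (76.2% of the Treg list and 84.2% of the Tconv list), against 21.7% of all genes, and called higher in both were 10, against 18.6%. Dgka was among the 16, though in Treg its tissues separated only after CCl4. Control Treg held 876 to 981 CPM of Dgka in liver and 909 to 1021 CPM in spleen. After CCl4 liver Treg held 587 to 666 CPM and spleen Treg 874 to 1010 CPM. All 3 of the CD3 chains and Cd247 were lower in liver Treg, and the kinases Lck, Fyn, Zap70, Csk and Prkcq were lower in both cell types. Without spleen controls 2 and 3, 31 genes were called in Treg in place of 35, and 31 in Tconv in place of 30.

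Ptpn6 (SHP-1, a phosphatase that dampens proximal signalling; chr6:124720707-124738714, minus strand) showed the largest fall among genes named here. In Treg it ran from 131 to 165 CPM in the 8 liver libraries (median 140.4) and from 277 to 389.6 CPM in the 8 spleen libraries (median 349), with a log2 fold change of -1.22 (SE 0.08, edgeR adjusted p = 6.03e-14). In Tconv it ran from 196 to 291 CPM in liver (median 222) and 446 to 561 CPM in spleen (median 543), with a log2 fold change of -1.20 (SE 0.08, edgeR adjusted p = 1.02e-13). Neither pair of tissues overlapped. Csk was lower by the same amount in both cell types, with a log2 fold change of -0.81 (SE 0.06 in each), at 84.7 to 138 CPM in liver Treg (median 102) and 168 to 204 CPM in spleen Treg (median 191). Dgkz fell by 0.88 on the log2 scale in Treg, from 492 to 587 CPM in spleen (median 541) to 239.6 to 349 CPM in liver (median 269), and by 0.69 in Tconv.

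Lck, the first kinase of the cascade (chr4:129548344-129573641, minus strand), ran from 960.3 to 1225 CPM in liver Treg (median 1026) and 1588 to 1948 CPM in spleen Treg (median 1673). It was thus lower in every liver library (log2 fold change -0.68, SE 0.06, edgeR adjusted p = 9.21e-11), and in Tconv too (log2 fold change -0.47, SE 0.06, edgeR adjusted p = 1.28e-07). Prkcq was lower in liver Treg by 0.84 on the log2 scale (SE 0.05, edgeR adjusted p = 1.34e-13), from 416 to 558 CPM in spleen (median 477) to 179 to 401 CPM in liver (median 216), where the upper part of the liver range is the 3 controls. Vav1, an exchange factor for Rac, fell by 0.76 on the log2 scale in Treg, with 176 to 208 CPM in liver (median 195) and 294 to 369.9 CPM in spleen (median 327). Cd3d read 268 to 367 CPM in liver Treg (median 319) and 454 to 604 CPM in spleen Treg (median 515), a log2 fold change of -0.74 (SE 0.06, edgeR adjusted p = 3.41e-11). Cd3g and Cd247 fell by 0.60 and 0.43 on the log2 scale in Treg, also without overlap.

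Genes higher in liver included Orai1, the pore of the calcium channel (chr5:123015074-123030456, plus strand). In Tconv Orai1 ran from 172 to 259 CPM in liver (median 209) and 77 to 97.4 CPM in spleen (median 87.7), with a log2 fold change of 1.29 (SE 0.07, edgeR adjusted p = 1.56e-15). In Treg it ran from 112 to 168 CPM in liver (median 137) and 78 to 91.6 CPM in spleen (median 84.4), with a log2 fold change of 0.73 (SE 0.07, edgeR adjusted p = 1.74e-10). Sla was higher in liver by 0.92 in Treg and 0.91 in Tconv on the log2 scale, with liver Treg at 976 to 1145 CPM (median 1031) and spleen Treg at 481 to 699 CPM (median 596). Ptpn22 read 583 to 674 CPM in liver Tconv (median 631) and 274 to 371 CPM in spleen Tconv (median 304), a log2 fold change of 1.04 (SE 0.06, edgeR adjusted p = 7.13e-14). Cblb, a ligase that limits activation without costimulation (chr16:52031225-52208048, plus strand), was higher in liver by 1.27 in Treg and 1.21 in Tconv on the log2 scale. These Cblb values sum all its transcripts, of which those retaining an intron held a larger share in liver, as given below. The catalytic calcineurin subunit Ppp3ca and the calcium sensor Stim1 were higher in liver in both cell types, Ppp3ca by 0.45 and 0.36 and Stim1 by 0.44 and 0.19 on the log2 scale, while Rcan1 was lower by 0.78 and 0.58. Hepatocyte markers summed to 4.12 to 265 TPM in liver libraries and 0.0609 to 2.25 TPM in spleen libraries, and their part in the tissue differences was not tested.

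**Figure D3:**
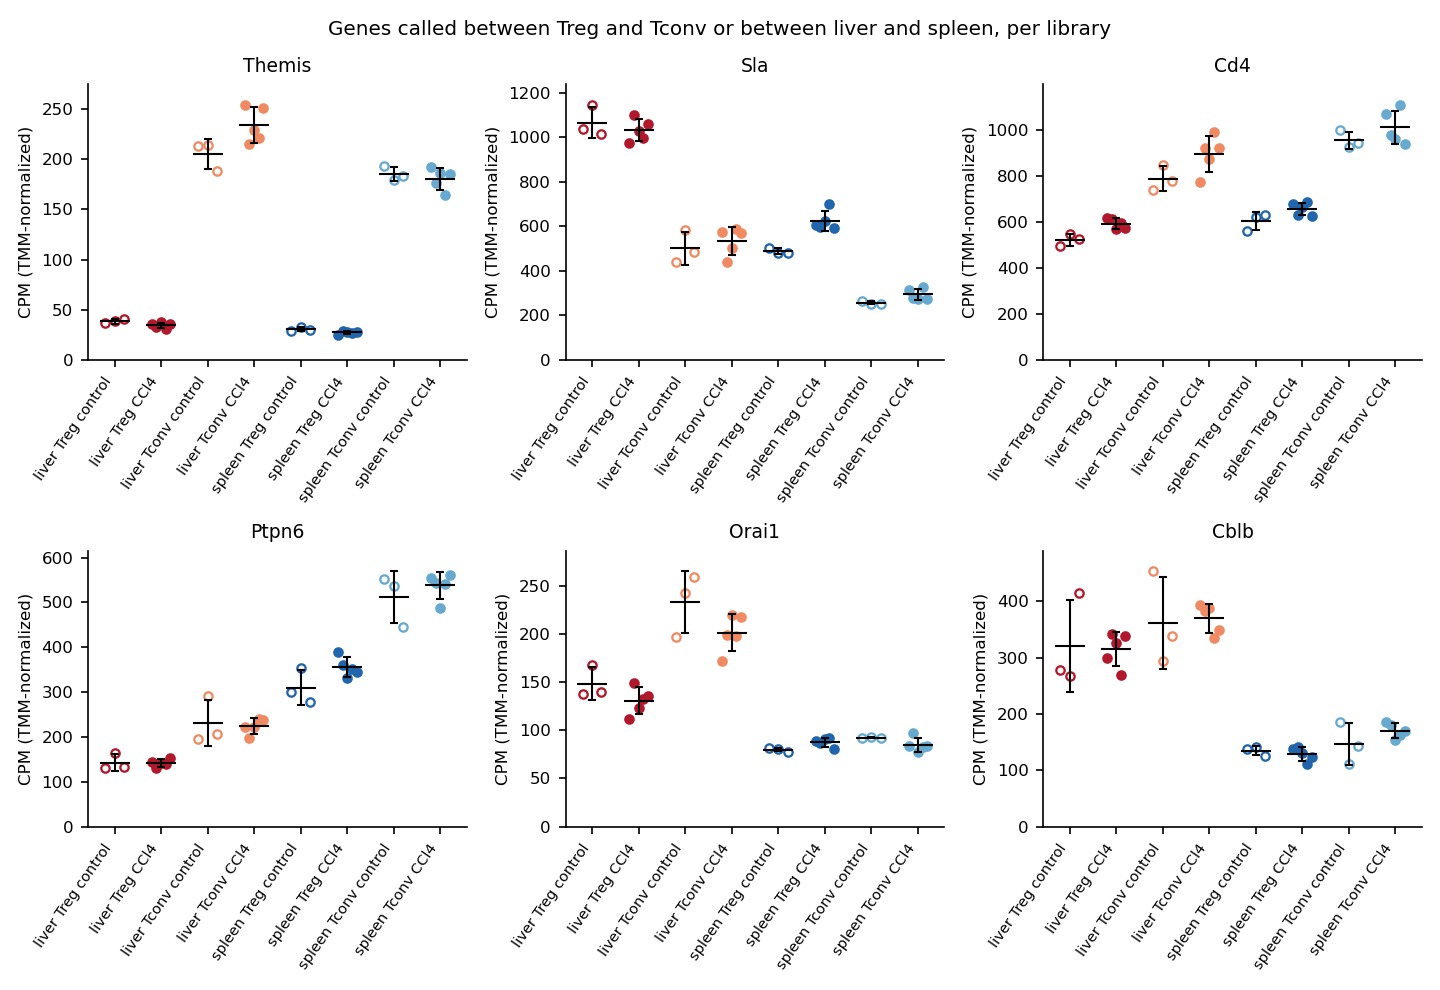
CPM (TMM-normalized, linear axis from 0) of 6 genes in all 8 groups; open points are control and filled points CCl4 libraries, and the bar and whiskers give mean and SD. Themis is at 24.9 to 41.1 CPM in all 16 Treg libraries and 164 to 254 CPM in all 16 Tconv libraries, while Ptpn6 is lower and Orai1 and Cblb are higher in liver than in spleen within each cell type.

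Treg carried less of most of this machinery than Tconv. In liver 30 of the 43 genes were lower and 6 higher in Treg, against 27.1% and 24.7% of all genes (51.8% in either direction), and in spleen 23 were lower and 6 higher, against 20.3% and 19.4% (39.7% in either direction). Called lower in both tissues were 21 genes (70% of the liver list and 91.3% of the spleen list), against 15.4% of all genes, and higher in both were Sla, Cd5, Cbl and Ppp3ca, against 13.3%. These calls too were averaged over control and CCl4. Rasgrp1 was among the 21, though in liver its cell types separated in controls only. Control liver held 337 to 397 CPM in Treg and 478 to 532 CPM in Tconv. After CCl4 liver Treg held 396 to 511 CPM and liver Tconv 413 to 522 CPM. Libraries did not overlap for 22 genes in liver, against 18.7% of all, and for 17 in spleen, against 15.7%. The median log2 fold change of the 43 genes was -0.31 in liver and -0.20 in spleen, where that of all genes was 0.01 in each. Lower in Treg were 5 of 6 kinases in each tissue, and 10 (liver) and 11 (spleen) of the 13 adaptors. In spleen 25 genes were called in place of 29 without spleen controls 2 and 3, and the median there was -0.24.

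Themis, an adaptor known for its role in thymocyte selection (chr10:28668360-28883818, plus strand), differed most. It ran from 30.6 to 41.1 CPM in liver Treg (median 36.2) and 188 to 254 CPM in liver Tconv (median 218), and from 24.9 to 33 CPM in spleen Treg (median 28.5) and 164 to 193 CPM in spleen Tconv (median 184). All 16 Treg libraries lay far below all 16 Tconv libraries, with log2 fold changes of -2.58 in liver (SE 0.06, edgeR adjusted p = 1.2e-24) and -2.66 in spleen (SE 0.06, edgeR adjusted p = 1.11e-24). Txk was lower in Treg by 1.02 in liver and 1.04 in spleen on the log2 scale, at 101 to 142 CPM in spleen Treg (median 112) and 229.8 to 268 CPM in spleen Tconv (median 244). Prkcq was lower in Treg by 0.92 in liver and 0.47 in spleen on the log2 scale. Grap2, Pag1 and Sos1 were lower in Treg as well, Grap2 by 0.90 on the log2 scale in each tissue, Pag1 by 1.05 and 0.94, and Sos1 by 0.94 and 0.56.

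The coreceptor Cd4, on which both cell types were sorted (chr6:124864692-124888221, minus strand), was also lower in Treg, at 495 to 615 CPM in liver Treg (median 569) and 739 to 989 CPM in liver Tconv (median 859). Its log2 fold change was -0.59 in liver (SE 0.05, edgeR adjusted p = 2.07e-11) and -0.64 in spleen (SE 0.05, edgeR adjusted p = 5.79e-12), with no overlap in either. Lat read 201 to 305 CPM in liver Treg (median 245) and 418 to 601 CPM in liver Tconv (median 493), a log2 fold change of -0.93 (SE 0.07, edgeR adjusted p = 3.67e-12), and -0.49 in spleen. Dgka ran from 874 to 1021 CPM in spleen Treg (median 908) and 1583 to 1727 CPM in spleen Tconv (median 1705), a log2 fold change of -0.84 (SE 0.05, edgeR adjusted p = 1.31e-13), and -0.66 in liver, where 2 of the 3 control Treg libraries, at 981 CPM each, lay above the lowest Tconv library at 973 CPM. The CD3 chains Cd3e, Cd3d and Cd3g were lower in liver Treg, by 0.28, 0.35 and 0.51 on the log2 scale, and were not called in spleen.

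Among genes higher in Treg, Sla (chr15:66780819-66831829, minus strand) stood out, at 976 to 1145 CPM in liver Treg (median 1031) and 439 to 588 CPM in liver Tconv (median 537). In spleen it ran from 481 to 699 CPM in Treg (median 596) and 253 to 327 CPM in Tconv (median 274). No library overlapped in either tissue, with log2 fold changes of 1.02 (SE 0.06, edgeR adjusted p = 4.18e-14) and 1.00 (SE 0.06, edgeR adjusted p = 8.02e-14). Cd5, a surface inhibitor whose level follows receptor signal strength in T cells, was higher in Treg by 0.43 in liver (SE 0.05, edgeR adjusted p = 3.65e-09) and 0.26 in spleen (SE 0.05, edgeR adjusted p = 2.38e-05) on the log2 scale, at 643 to 769 CPM in liver Treg (median 685) and 445 to 587 CPM in liver Tconv (median 527). The ligase Cbl was higher by 0.69 and 0.33 and Ppp3ca by 0.39 and 0.31 on the log2 scale. Grb2, the adaptor that carries Sos1, read 299.7 to 341 CPM in liver Treg (median 321) and 189 to 230.2 CPM in liver Tconv (median 213), a log2 fold change of 0.60 (SE 0.05, edgeR adjusted p = 4.74e-11), and was not called in spleen. Markers of NK and NKT-like cells (5 of 5 genes) summed to 478 to 1368 TPM in liver Tconv and 70.4 to 158 TPM in liver Treg, where Ncr1 was at 0, and to 119 to 232 TPM in spleen Tconv and 53.1 to 141 TPM in spleen Treg. Nkg7 made most of the sum in liver Tconv, at means of 654 TPM in controls and 889 TPM after CCl4. In liver Treg Nkg7 was at 95.2 and 118 TPM. The other markers in liver Tconv, control and CCl4, were Klrd1 at 38.8 and 23.5 TPM and Zbtb16 at 13.1 and 2.02 TPM. Klrb1c was at 5.43 and 1.3 TPM there and Ncr1 at 0.201 and 0.0208 TPM. The part of these markers in the differences was not tested.

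Whether the liver and spleen difference itself differed between Treg and Tconv was tested for every gene, and 12 of the 43 genes were lower and 4 higher in Treg, against 12.4% and 7.02% of all genes (19.4% in either direction). Grb2 differed by 0.55 (SE 0.07, edgeR adjusted p = 2.46e-06), being higher in liver than spleen in Treg by 0.57 on the log2 scale and not called in Tconv. Orai1 differed by -0.56 (SE 0.09, edgeR adjusted p = 6.16e-05) and Prkcq by -0.44 (SE 0.08, edgeR adjusted p = 8.66e-05). Nfatc1 differed by -0.64 (SE 0.14, edgeR adjusted p = 0.00181): it was lower in liver than in spleen Treg by 0.57 on the log2 scale, and Treg had less of it than Tconv in liver (-0.31) and more in spleen (0.33). Fyb behaved in the opposite sense, with Treg at 0.14 above Tconv in liver and at -0.30 in spleen, averaged over control and CCl4. The liver value of Fyb joined unlike conditions. Control liver held 574 to 639.9 CPM in Treg and 423 to 530.1 CPM in Tconv. After CCl4 liver Treg held 418 to 486 CPM and liver Tconv 444 to 517 CPM. Without spleen controls 2 and 3 the count of called differences was 10 in place of 16, and Nfatc1 was at -0.53 (edgeR adjusted p = 0.0913, the largest over its 39 alternatives, which began at 1.48e-05).

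Transcripts within genes are described without a test, as kallisto divides reads shared between transcripts by estimate. Of the 43 genes, 19 had at least 2 protein-coding transcripts that each carried 10% or more of the gene's TPM. Lck differed by promoter: the transcript that starts at the proximal promoter (Lck-201) held 1.02% to 2.37% of Lck TPM in the 16 Treg libraries and 5.01% to 10.4% in the 16 Tconv libraries. By level it ran from 10.8 to 39.7 TPM in Treg and from 64.4 to 197 TPM in Tconv, so that no Treg library reached a Tconv library. The distal-promoter transcript (Lck-202) carried 67.2% to 88.3% of Lck TPM in all libraries. Both transcripts start next to the windows printed above.

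For Rcan1 the transcripts from the upstream promoter carried 68.8% to 100% of the gene's TPM in any library. In liver Treg they summed to 4.1, 5.71 and 5.96 TPM in controls and 10.4, 9.28, 7.04, 17.4 and 10.1 TPM after CCl4, with no overlap. The transcript from the downstream promoter, whose window holds the 3 GGAAA or TTTCC matches, was at 1.63, 0.31 and 0 TPM in controls and 0, 0.281, 0.381, 0 and 0 TPM after CCl4. Its level was at most 3.15 TPM in any of the 32 libraries.

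Nfatc1 differed by its end. Transcripts that use the nearer of its 3′ ends, known to encode the short isoforms, carried 59.9% to 75.6% of Nfatc1 TPM in liver libraries and 32.5% to 57.0% in spleen libraries, with liver above spleen throughout. Within spleen, Treg stood at 43.9% to 57.0% and Tconv at 32.5% to 44.2%. By level the near-end transcripts overlapped between tissues in Treg, at 63.8 to 111 TPM in liver and 68.3 to 155 TPM in spleen. In Tconv they ran from 76.4 to 105 TPM in liver and 42.5 to 89.3 TPM in spleen. Transcripts from the upstream Nfatc1 promoter held at most 43.3% in liver Treg and 39.4% to 61.8% in spleen Treg. In Tconv they held 30.1% to 47.9% in liver and 22.8% to 39.5% in spleen. A single transcript, Nfatc1-201, held 25.9% to 43.6% of Nfatc1 TPM in liver and 2.12% to 28.2% in spleen. Fyn was carried mainly by Fyn-205 and Fyn-201, at 47.3% and 28.8% of its TPM over all libraries, and Cd247 by Cd247-201, at 91.7%. Fyb-201 held 51.1% to 60.8% of Fyb TPM in liver and 63.0% to 72.9% in spleen. Nfatc2 was split between Nfatc2-204 at 38.1%, Nfatc2-202 at 25.9% and the intron-retaining Nfatc2-206 at 22%. Ptpn6-202 held 73.6% to 79.2% of Ptpn6 TPM in liver Treg and 83.5% to 88.8% in liver Tconv.

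**Figure D4:**
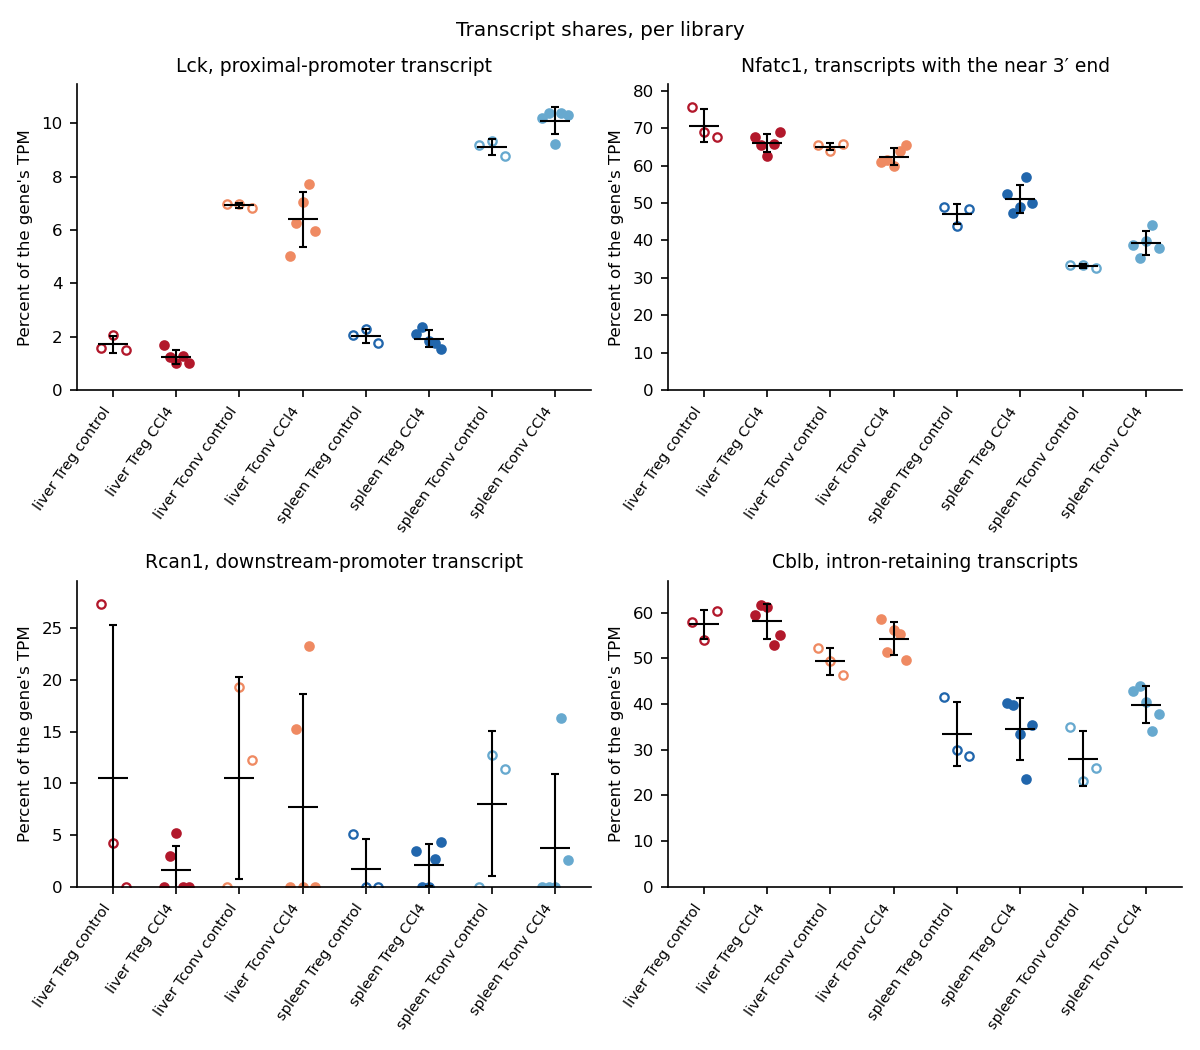
Percent of a gene's TPM in 4 classes of transcript, per library in the 8 groups; open points are control and filled points CCl4 libraries, and the bar and whiskers give mean and SD. The Lck proximal-promoter share separates Tconv (5.01% to 10.4%) from Treg (1.02% to 2.37%), and the Nfatc1 near-end and Cblb intron-retaining shares are higher in liver than in spleen.

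Transcripts annotated as retaining an intron had a higher median share in liver for most genes of the list that have them. For Cblb they held 53.0% to 61.7% of TPM in liver Treg and 23.5% to 41.5% in spleen Treg, and 46.4% to 58.7% in liver Tconv and 23.2% to 44.0% in spleen Tconv. Cblb protein-coding transcripts were also higher in liver, at 35.7 to 59.4 TPM in liver Treg and 26.4 to 36.6 TPM in spleen Treg, with slight overlap. Ptpn22 intron-retaining transcripts held 23.3% to 36.9% in liver Treg and 5.18% to 9.27% in spleen Treg. Of 33 genes with such transcripts, every liver library lay above every spleen library for 10 in Treg and 6 in Tconv, against 9.39% and 4.78% of the 8118 genes tested that have them. The median was higher in liver for 29 in Treg and 30 in Tconv, against 71.4% and 64% of those genes. Over all genes, intron-retaining transcripts took 8.33% to 9.44% of a library's TPM in liver Treg, 7.06% to 8.47% in liver Tconv, 5.48% to 7.15% in spleen Treg and 6.07% to 7.46% in spleen Tconv. In control Tconv this share was not larger in liver, with medians of 7.11% in liver and 7.27% in spleen. Counted from protein-coding transcripts only, 34 genes were called between tissues in Treg in place of 35, and 28 in Tconv in place of 30.

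A list of 74 other genes of the pathway gave 13 higher (17.6%) and 9 lower (12.2%) in liver Treg after CCl4, against 7.55% and 7.34% of all genes, with a median log2 fold change of -0.06 where that of all genes was 0.00. Malt1, the protease of the NF-kB branch, rose by 0.94 on the log2 scale (224 to 429.8 mean CPM), and Nck2 and the kinase Tec rose by 0.63 and 0.93. Rasgrp2, a Rap exchange factor, and Trat1, a receptor-associated adaptor, each fell by 1.51 on the log2 scale. The list gave 0 called genes in liver Tconv, 1 in spleen Treg and 1 in spleen Tconv. Between tissues 31 were higher (41.9%, against 30.1% of all genes) and 23 lower (31.1%, against 30.5%) in liver Treg, and 29 (39.2%, against 27.2%) and 19 (25.7%, against 27.7%) in liver Tconv. Between cell types 22 were higher (29.7%, against 24.7%) and 27 lower (36.5%, against 27.1%) in liver Treg than Tconv, and 21 (28.4%, against 19.4%) and 18 (24.3%, against 20.3%) in spleen. The shares lower between tissues were thus near those of all genes. Vav2, a relative of Vav1, was higher in Treg by 2.77 and 2.72 on the log2 scale, and Rasgrp2 fell by 1.64 and 1.59. The list gave, without spleen controls 2 and 3, 23 higher and 20 lower between tissues in Treg, 24 and 16 in Tconv, 16 and 16 between cell types in spleen, and 0 after CCl4 in either spleen population.

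A list of 30 genes that receptor signalling is known to induce, some of them immediate early genes, was counted in the same comparisons. In Treg against Tconv 18 were higher (60%, against 24.7% of all genes) and 6 lower (20%, against 27.1%) in liver. In spleen 20 were higher (66.7%, against 19.4%) and 0 lower (against 20.3%). Tnfrsf9, Tnfrsf4 and Ikzf2 led those higher in both tissues, and Egr2, Dusp2 and Spry1 led those lower in liver. Some genes of the list, Ikzf2, Il2ra and Ctla4 among them, are also known as Treg genes. Receptor signal itself was not tested. In liver against spleen 18 were higher (60%, against 30.1%) and 6 lower (20%, against 30.5%) in Treg. In Tconv 20 were higher (66.7%, against 27.2%) and 3 lower (10%, against 27.7%). Icos was higher by 1.73 and 2.96 and Ctla4 by 2.18 and 3.65 on the log2 scale, in Treg and Tconv. Egr2, Egr3 and Cd200 led those lower in Treg, and Myc, Cd200 and Egr3 were the 3 lower in Tconv. After CCl4 6 were higher (20%, against 7.55%) and 1 lower (3.33%, against 7.34%) in liver Treg, among them Tnfrsf4, Tnfrsf9 and Pdcd1 at 0.81, 0.90 and 1.63, with Egr2 at -0.88. In spleen Treg 6 were higher after CCl4 (20%, against 0.758%), among them Bhlhe40 at 1.86 and Nr4a2 at 1.38 on the log2 scale. In liver Tconv 1 was higher after CCl4 (3.33%, against 0.146%) and 0 lower. In spleen Tconv 2 were higher (6.67%, against 0.653%) and 1 lower (3.33%, against 0.414%). The spleen controls in these comparisons include the low-Fos libraries. Without them 16 were higher and 6 lower between tissues in Treg, 19 and 3 in Tconv, 16 and 1 between cell types in spleen, and 0 after CCl4 in spleen Treg, where 1 control was left. After CCl4 the list's median log2 fold change was 0.25 in liver Treg and 0.2 in liver Tconv. In spleen it was 0.50 in Treg and 0.49 in Tconv, and 0.39 and 0.15 without the low-Fos libraries. Between tissues it was 0.75 in Treg and 1.07 in Tconv (0.63 and 0.89 without those libraries). Between cell types it was 0.68 in liver and 0.85 in spleen (0.83 in spleen without them).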

How the data were processed

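RNA from sorted cells was extracted with Trizol and a Qiagen kit and made into libraries with a Clontech low-input kit and NexteraXT, per the labels' protocols. The deposited tables give each transcript's estimated count, effective length and TPM, per the file headers. The submitters' processing notes name kallisto 0.44.0, bcl2fastq 2.19, DESeq2 and GRCm38.p6. The authors' estimated counts were summed per gene and rounded, and the authors' deposited TPM values were summed per gene for levels between genes. Gene names came from GENCODE M21 transcript names, which matched 98.5% of 118489 transcripts; the 1761 unmatched ones (0.684% to 0.823% of counts) were left out. Strand was not given in the sources used here, so overlapping antisense genes cannot be told apart.

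All 32 libraries were fitted with edgeR 4.0.16 (TMM scaling, filterByExpr, quasi-likelihood test, Benjamini-Hochberg adjustment over 17159 genes, threshold 0.05). A CPM here is scaled by TMM, and an SE is the size of the log2 fold change over the root of the F statistic. The script was tested on simulated data. Genes given in full are, per comparison and role, up to 3 called genes with the smallest adjusted p, and genes called in a difference of effects are named; library values are given for some of them and ranges for the rest. From each other list up to 3 genes per direction are named by the same order, and a few more by fold change only, chosen after their values were seen. The 43 genes, the other lists and the marker lists were chosen with earlier results of these data known. Alternatives were DESeq2 1.42.0, DESeq2 size factors, no filter, length offsets, the compared groups alone, a replicate block, leaving out each library, leaving out spleen controls 2 and 3, and, chosen after seeing the data, protein-coding transcripts only and, for the other gene lists, leaving out those spleen controls.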

Additional observations from a re-analysis of the deposited data

Results flagged for a closer look

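In 17 of 116 groups of 5 libraries tested, 1 library lay far from the other 4; chance gives about 1 in 20. All are CCl4 libraries, as control groups of 3 were not tested. Replicate 4 of spleen Tconv stood apart for 5 genes: Cd3d at 460.1 CPM (others 546 to 579), Dgkz at 717 CPM (539 to 586), Ptpn22 at 371 CPM (294 to 313), Lat at 443 CPM (614 to 679) and Nfatc3 at 439.9 CPM (359 to 373). Replicate 4 of spleen Treg stood apart for Fyn at 801 CPM (680.1 to 711), Ptpn22 at 277 CPM (207 to 219) and Sla at 699 CPM (594 to 623). Replicate 1 of spleen Treg held 1010 CPM of Dgka (874 to 906). Replicates 3 and 2 of spleen Tconv held 487 CPM of Ptpn6 (542 to 561) and 391 CPM of Vav1 (418 to 428). In liver Tconv, replicate 1 held 355 CPM of Cd3d (419.6 to 444) and 287 CPM of Dgkz (356 to 381), and replicate 3 held 544 CPM of Prkcq (481 to 489). In liver Treg, replicate 2 held 666 CPM of Dgka (587 to 607), replicate 5 held 298 CPM of Plcg1 (249.9 to 263) and replicate 4 held 24.2 CPM of Rcan1 (10.1 to 14.2).

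Tests of a difference between effects passed at an edgeR adjusted p under 0.05 for 25 gene results. The CCl4 effect in liver Treg differed from that in liver Tconv for Prkcq (-0.82), Lat (-0.58), Dgka (-0.49), Fyb (-0.40) and Rasgrp1 (0.42), in log2 units. It differed from that in spleen Treg for Prkcq (-0.77), Dgka (-0.56), Rasgrp1 (0.41) and Nck1 (0.37). The liver and spleen difference was lower in Treg than in Tconv for Nfatc1 (-0.64), Orai1 (-0.56), Lat (-0.45), Prkcq (-0.44), Ptpn22 (-0.44), Cd3g (-0.40), Ubash3a (-0.36), Cd3d (-0.34), Fyn (-0.31), Cd3e (-0.27), Lcp2 (-0.27) and Skap1 (-0.24). It was higher in Treg for Grb2 (0.55), Fyb (0.44), Rasgrp1 (0.27) and Stim1 (0.25). Without spleen controls 2 and 3 the calls for Cd3e, Fyn, Lat, Nfatc1, Lcp2, Rasgrp1 and Stim1 in the tissue contrast were lost, with edgeR adjusted p of 0.135, 0.0832, 0.0672, 0.0913, 0.189, 0.0607 and 0.236. Stim1 was lost in 25 of its 39 alternatives (edgeR adjusted p from 0.0169 to 0.366) and Lcp2 in 8 of 39 (0.00881 to 0.189).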

How the results depend on the processing

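No named result changed direction under any alternative. Of 2417 recomputed values of 96 named results, 2320 stayed on the same side of the threshold and 97 lost the call, in 20 of the results; genes named with a fold change only were recomputed as part of the counts. Counts of called genes among the 43 moved by over 1.5 times as follows, and the cause was not tested. For CCl4 in spleen Treg the 1 call became 0 with no filter, with protein-coding transcripts only and without spleen controls 2 and 3, 2 with the compared groups alone and 3 with DESeq2. For CCl4 in spleen Tconv the 0 calls became 2 with DESeq2. The 5 differences of the CCl4 effect between liver Treg and liver Tconv became 8 with DESeq2 and 2 with the groups alone. The 4 between liver Treg and spleen Treg became 7 with DESeq2 size factors, 9 with DESeq2, and 2 with no filter or without spleen controls 2 and 3. The 16 differences of the tissue contrast became 10 without spleen controls 2 and 3. Leaving out 1 library gave 10 to 17 calls for CCl4 in liver Treg, 0 to 0 in liver Tconv and in spleen Treg, 0 to 1 in spleen Tconv (1 without spleen Tconv control replicate 1), 34 to 36 and 29 to 33 between tissues in Treg and Tconv, 34 to 38 and 27 to 29 between cell types in liver and spleen, 3 to 7 and 2 to 4 for the differences of the CCl4 effect (2 without control replicate 2 or 3 of spleen Treg), and 14 to 20 for the tissue contrast. Correlations of same-numbered libraries' deviations ran from -0.02 to 0.13, with 5 of 48 pairs over 0.1, and those of differently numbered libraries from -0.12 to 0.07, with 0 of 156 over 0.1. Low Fos also fell on the same numbers in both spleen populations. The median correlation was 0.03 for same-numbered and -0.01 for differently numbered pairs. The labels do not say that a number marks an animal, so the main fit did not use the numbers as pairing. Whether same-numbered libraries share mice or handling was not tested. A fit with the replicate number as a block called 17, 0, 1, 0, 35, 31, 37, 30, 7, 6 and 18 genes, for CCl4 in liver Treg, liver Tconv, spleen Treg and spleen Tconv, tissue in Treg and Tconv, cell type in liver and spleen, the CCl4 effect in liver Treg against liver Tconv and against spleen Treg, and the tissue contrast between cell types.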
